A study of Homo sapiens with 6 samples.

Results

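The integrated stress response genes described here are ATF4, a bZIP transcription factor, and 9 genes known as its targets: DDIT3, ASNS, TRIB3, CHAC1, SESN2, PSAT1, PHGDH, DDIT4 and EIF4EBP1. They were chosen by name from general knowledge of the pathway, though earlier results of these data were known. All 10 were among the 16834 genes in the deposited table. The table held 6 RNA-seq libraries from the human embryonic kidney line HEK293-T Flp-In, 3 made from Flag-IPs and 3 from HA-IPs. Every library came from asynchronously cycling cells of the same line, which carried the construct for both tags, and no stress treatment is described, so the comparison is between 2 pools of ribosomes and not between stressed and resting cells.

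The cells stably expressed ccTaggedRP, a construct inserted as a single copy at a recombination site and driven by the ubiquitous CAG promoter. One bicistronic mRNA encodes a Flag-tagged and an HA-tagged copy of the large-subunit ribosomal protein RPL10a (the mouse protein), separated by a self-cleaving peptide. The Flag-RPL10a-hCdt protein carries a Cdt1 fragment that targets it for degradation from late S phase through G2/M, and the HA-RPL10a-hGem protein carries a Geminin fragment that targets it for degradation from late G1 to early S phase. By this design the Flag tag is expected mainly in G0/G1 and the HA tag mainly in G2-M. A tagged protein that is built into ribosomes may be degraded more slowly, and the phase of the cells behind each library was not measured in these files. The cells were kept under hygromycin B, and no input RNA or mock immunoprecipitation was analysed here. The labels do not say that the 3 libraries of a group came from separate cultures, so the p-values measure the spread between these libraries, which may be technical.

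In the integrated stress response, kinases that sense unfolded protein, missing amino acids, viral RNA or low heme phosphorylate the initiation factor eIF2, and initiation slows on most mRNAs. ATF4 mRNA is an exception: its leader holds short upstream reading frames, and when active eIF2 is scarce, ribosomes scan past an inhibitory frame and start at the ATF4 coding sequence more often. ATF4 then pairs with other bZIP proteins at C/EBP-ATF composite elements and raises transcription of genes for amino acid supply, tRNA charging, growth control and, when stress lasts, cell death.

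The leader frames are shown first, since they set how ribosomes reach these coding sequences. In the canonical ATF4 transcript (GENCODE 44, ENST00000674920, 3 exons, gene ENSG00000128272 at chr22:39519695-39522683 on the plus strand of GRCh38), the 5′ UTR is 282 bases long and holds 3 ATGs, counted from 1 at the transcript's 5′ end. The first 2 open frames that close before the main start codon, and the third, at base 186, opens a frame of 59 codons that runs past it. Both closed frames are given whole, with the start and stop codons in capitals, followed by the bases around the last ATG, with the ATG in capitals.
ATF4 frame at base 25: ATGTAG
ATF4 frame at base 87: ATGgcgtatTAG
ATF4 last upstream start at base 186: taagccATGg
The first frame has 1 codon before its stop and ends 252 bases before the main start, and the second has 3 codons and ends 184 bases before it.

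DDIT3, which encodes the pro-apoptotic factor CHOP, also has 3 upstream ATGs, in a 5′ UTR of 177 bases. Those at bases 35 and 44 lie in 1 frame and share a stop 38 bases before the main start, and they give 34 and 31 codons. The ATG at base 146 opens a frame of 73 codons that runs past the main start. The bases around the 3 starts are shown because the letters next to an ATG affect how often a scanning ribosome uses it; the ATG is in capitals.
DDIT3 start at base 35: cgtatcATGt
DDIT3 start at base 44: ttaaagATGa
DDIT3 start at base 146: aagcagATGt
TRIB3 has 2 upstream ATGs, at bases 46 and 81, with frames of 77 and 14 codons, and SESN2 has 1, at base 22, with a frame of 19 codons, all closed before the main start. The other 6 genes have none in their canonical 5′ UTRs of 40 to 197 bases. Upstream ATGs were thus present in 4 of the 10 genes, beside 5806 of 13801 coding genes of the table (42.1%), whose median 5′ UTR was 145 bases. ATF4 and DDIT3 were the 2 of the 10 with a frame that overlaps the coding sequence. The libraries count whole transcripts on tagged ribosomes and do not show which of these frames was being read.

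**Figure D1:**
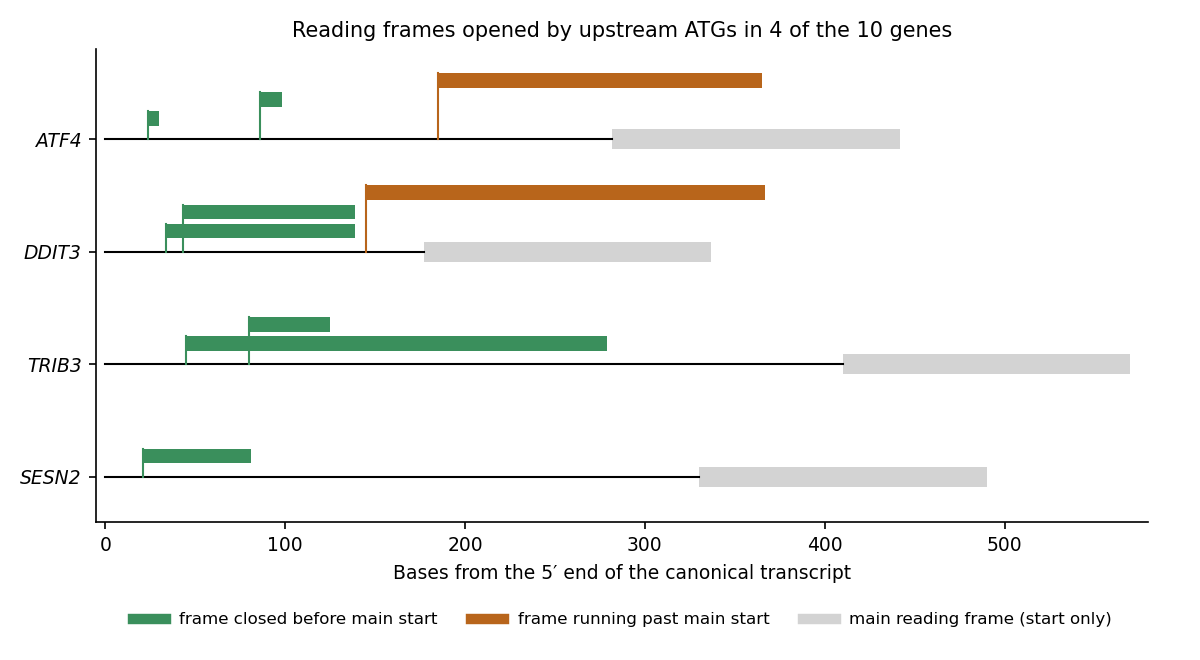
Leader of the canonical transcript of ATF4, DDIT3, TRIB3 and SESN2, in bases from the 5′ end (x axis). Green bars are upstream frames that close before the main start, orange bars are frames that run past it (59 codons in ATF4, 73 in DDIT3), and grey bars mark the first bases of the main coding sequence.

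The libraries held 23174532 to 44134833 reads on the listed genes. All 8 epithelial and kidney markers, the labelled cell type, were in the table, and 2 of the 8 were called in each direction. KRT8, KRT19 and EPCAM stood at means of 10631, 4579 and 3576 normalized counts. LHX1, PAX2 and PAX8 were low, at means of 98.8, 88.5 and 19.1. EPCAM and CDH1 were called higher in the HA-IPs (log2 fold changes, HA over Flag, of 0.34 and 0.29). PAX2 and PAX8 were called higher in the Flag-IPs (-0.79 and -3.57, adjusted p of 0.0467 and 0.00549, limma). Markers of heart muscle, a tissue these libraries should not hold, were also found: 16 of 20 were in the table and all 16 were called higher in the Flag-IPs, with summed levels of 70130 to 150815 normalized counts (0.227% to 0.501% of the library) against 1803 to 14329 in the HA-IPs (0.00572% to 0.0452%). None of the 16 was at 0 in all HA-IPs, and MYL7, NPPA, NPPB and PLN were not in the table. Fibroblast markers followed, with 6 of 7 called higher in the Flag-IPs (summed levels of 4913 to 7541 against 1528 to 2134), as did 3 of 4 endothelial markers (127 to 216 against 50.7 to 69.2), while LUM and the endothelial PECAM1, CDH5 and EMCN were not in the table. MYH7, a cardiac myosin, had 83895, 65505 and 42902 normalized counts in the Flag-IPs, as compared to 1031, 478 and 6766 for the HA-IPs. The part of these markers in the values of genes higher in the Flag-IPs (EIF4EBP1, ASS1, VLDLR, CREBRF and MANF) was not tested. Nor was their part in the values of genes higher in the HA-IPs, PHGDH among them.

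ATF4 itself was, with PHGDH, the best represented of the 10 genes per kilobase of canonical transcript, and the difference between the pools of ribosomes did not pass the test. It stood at 11361, 10448 and 10084 normalized counts in Flag-IP replicates 1 to 3, against 9568, 10217 and 10761 in the 3 HA-IPs. Normalized counts are reads divided by a size factor per library, so that 1 count stands for 0.770 to 1.42 reads. The groups overlapped: the highest library was Flag-IP replicate 1 and the next HA-IP replicate 3. The log2 fold change (HA over Flag, here and throughout) was -0.062 (SE 0.059, 95% interval -0.19 to 0.068), with an adjusted p of 0.551 (limma, Benjamini-Hochberg over 16834 genes). After removal of each library's trends in GC content and transcript length, the value was 0.039 with an adjusted p of 0.633, so not even a direction can be given. In bulk libraries like these, fewer cells of a kind, less RNA per cell and fewer ribosomes on an mRNA cannot be told apart.

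Of the 10 genes, 2 were called by limma at an adjusted p of at most 0.05, 1 in each direction. Of all genes 12.9% were called (2171 of 16834). All 10 averaged 50 or more normalized counts, a level at which 14.4% of genes were called (1891 of 13141). By direction, 5.79% of all genes had the higher level in the HA-IPs and a call, and 7.1% a call with the higher level in the Flag-IPs. PHGDH was higher in the HA-IPs, EIF4EBP1 was higher in the Flag-IPs, and the other 8 did not pass the test. The median log2 fold change of the 10 was -0.025, against -0.0049 for all genes, and their values ran from -0.31 for DDIT3 to 0.21 for ASNS. With 2 of 10 called, the share was near that of the whole table, and 5 of the 10 fold changes were above 0. The even split depended on the method. With DESeq2 on the recovered reads 2 were called, PHGDH and ASNS, both higher in the HA-IPs. The same 2 were called by limma without Flag-IP replicate 1 and with GC and length trends removed.

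**Figure D2:**
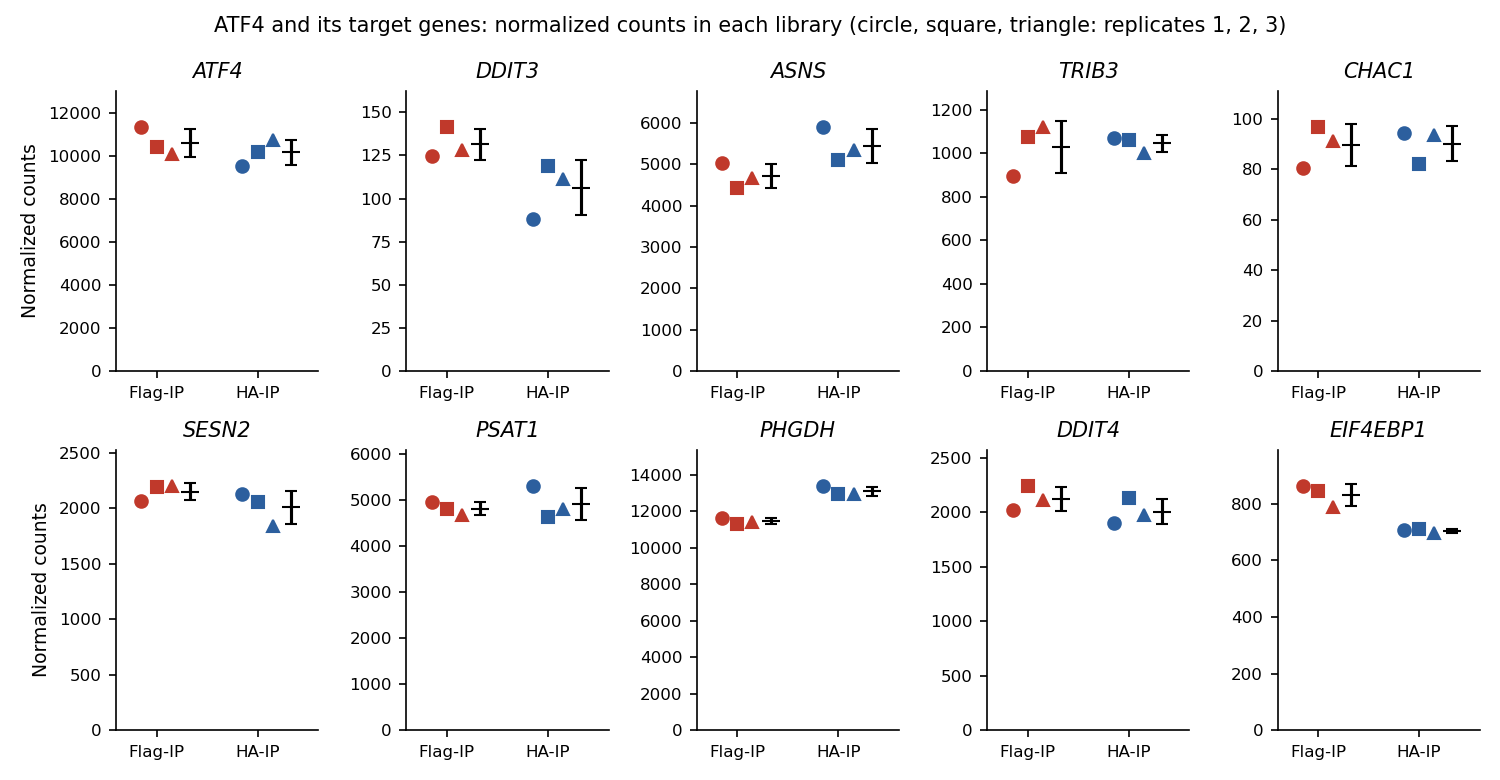
Normalized counts (y axes, each from 0) of the 10 genes in the 3 Flag-IPs (red) and 3 HA-IPs (blue), with replicates 1, 2 and 3 as circle, square and triangle and black bars for mean ± SD of each group. PHGDH in the HA-IPs (12926 to 13363) lies above the Flag-IPs (11301 to 11607), EIF4EBP1 in the HA-IPs (696 to 709) lies below them (789 to 861), and ATF4 overlaps.

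Of the genes of serine synthesis, 1 was called. PHGDH (ENSG00000092621, chr1:119648411-119744218, plus strand, 12 exons in the canonical transcript) encodes phosphoglycerate dehydrogenase, the first enzyme that draws serine carbon from glycolysis. It had 11607, 11301 and 11433 normalized counts in the Flag-IPs, compared with 13363, 12926 and 12968 in the HA-IPs. Each HA-IP exceeded every Flag-IP, and the group means were 11447 ± 154 and 13085 ± 241 (SD, n = 3 each). The HA-IPs were 14.3% higher, a log2 fold change of 0.19 (SE 0.043, 95% interval 0.098 to 0.29; adjusted p = 0.015, limma). The call was lost without Flag-IP replicate 2 (0.18, adjusted p = 0.0913), HA-IP replicate 1 (0.18, adjusted p = 0.0795), HA-IP replicate 2 (0.20, adjusted p = 0.0623) or HA-IP replicate 3 (0.20, adjusted p = 0.0517), with little change in its size. Quantile normalization gave a smaller value, 0.12, with an adjusted p of 0.0844, and 0.26 with an adjusted p of 0.00149 was found after GC and length trends were removed.

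PSAT1 (ENSG00000135069, chr9:78297125-78330093, plus strand, 9 exons), the phosphoserine aminotransferase that acts next in the same pathway, had 4954, 4801 and 4664 normalized counts in the Flag-IPs, against 5290, 4635 and 4794 in the HA-IPs. The groups overlapped, with the highest and the lowest library both HA-IPs. The log2 fold change was 0.028 (SE 0.057, 95% interval -0.097 to 0.15; adjusted p = 0.803, limma), and its sign turned under 2 of the other scalings. PSPH, the phosphatase that completes the pathway and was named after its value had been seen, had a log2 fold change of -0.14 with an adjusted p of 0.358 (limma). Whether PHGDH differed from PSAT1 in its change was not tested.

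ASNS (ENSG00000070669, chr7:97851677-97872542, minus strand, 13 exons) encodes asparagine synthetase, which makes asparagine from aspartate with glutamine as the nitrogen donor, and did not pass the test. It had 5022, 4437 and 4682 normalized counts in the Flag-IPs, while the HA-IPs had 5903, 5100 and 5337, so that the lowest HA-IP was above the highest Flag-IP. The HA-IPs were 15.5% higher, a log2 fold change of 0.21 (SE 0.064, 95% interval 0.066 to 0.35; adjusted p = 0.0564, limma). Its size was like that of PHGDH with a wider spread, and its adjusted p was below 0.05 in 5 of the 17 alternatives, among them DESeq2 on the recovered reads (0.0267), the fit without Flag-IP replicate 1 (0.0137) and the one without GC and length trends (0.0162). A long noncoding gene on the same strand, ENSG00000284707, shares 2415 exon bases with ASNS (49.3% of its exons) in GENCODE 44 and is not among the genes of the table. How the authors' annotation treated these bases is not given in the sources used here.

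Among the regulators of cell death and of ATF4 itself, none passed the test. DDIT3 (ENSG00000175197, chr12:57516588-57521737, minus strand, 4 exons) had 125, 141 and 128 normalized counts in the Flag-IPs, as compared to 88.2, 119 and 111 for the HA-IPs. All Flag-IPs were higher than all HA-IPs, and the lowest library, HA-IP replicate 1, stood apart from the rest. The values rest on 96 to 139 reads per library, and the log2 fold change of -0.31 had a wide interval (SE 0.16, 95% interval -0.66 to 0.033; adjusted p = 0.229, limma). It was -0.19 without HA-IP replicate 1 and -0.14 after GC and length trends were removed. DDIT3 also shares 355 exon bases, 27.2% of its exons, with the methionyl-tRNA synthetase gene MARS1 on the opposite strand, and MARS1 had far more reads (12896 to 13719 normalized counts in the Flag-IPs and 15379 to 15743 in the HA-IPs). Whether reads were counted by strand is not stated, and without strand reads from the shared bases cannot be assigned to either gene.

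TRIB3 (ENSG00000101255, chr20:362835-397559, plus strand, 4 exons), a pseudokinase that binds ATF4 and dampens its activity, had 895, 1074 and 1120 normalized counts in the Flag-IPs, compared with 1072, 1060 and 1002 in the HA-IPs. The 3 HA-IPs lay inside the range of the Flag-IPs, with Flag-IP replicate 1 the lowest library. The log2 fold change was 0.027 (SE 0.084, 95% interval -0.16 to 0.21; adjusted p = 0.874, limma), and -0.071 without Flag-IP replicate 1. CHAC1 (ENSG00000128965, chr15:40952962-40956512, plus strand, 3 exons), which breaks down glutathione, was the lowest of the 10 genes, with 80.5, 96.8 and 91.3 normalized counts in the Flag-IPs, against 94.6, 82.2 and 93.7 in the HA-IPs. Its log2 fold change of 0.011 had an interval of -0.35 to 0.37 (adjusted p = 0.976, limma), so a moderate difference in either direction was not detectable at 62 to 134 reads per library.

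Of the 3 inhibitors of growth signalling, 1 was called. EIF4EBP1 (ENSG00000187840, on chromosome 8) encodes 4E-BP1, which blocks the cap-binding factor eIF4E when mTORC1 does not phosphorylate it. It had 861, 843 and 789 normalized counts in the Flag-IPs, while the HA-IPs had 708, 709 and 696, without overlap, and the HA-IPs varied little. The group means were 831 ± 37.7 and 704 ± 7.51 (SD, n = 3 each). The HA-IPs were lower, with a change of -15.2%, or -0.24 on the log2 scale (SE 0.067, 95% interval -0.38 to -0.090; adjusted p = 0.0394, limma). With GC and length trends removed the value was -0.055 with an adjusted p of 0.655. Its canonical transcript has the highest GC content of the 10 genes, 62.9%, and is also the shortest, at 827 bases. The trends were removed together, so the parts of GC and length were not separated. DESeq2 on the recovered reads did not call EIF4EBP1 (adjusted p = 0.0564). The call was also lost when any 1 of 5 libraries was left out, all but Flag-IP replicate 3, at adjusted p of 0.0763 and 0.148 for Flag-IP replicates 1 and 2 and of 0.109, 0.113 and 0.114 for the HA-IPs in turn. Among the Flag-IPs, the library with the most MYH7 (a heart muscle myosin, given above) also had the most EIF4EBP1. The Flag-IP with the least MYH7 had the least EIF4EBP1, and the HA-IP with the most MYH7 had the least EIF4EBP1. An order over 3 libraries cannot show a link between these genes, and a link was not tested.

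DDIT4 (ENSG00000168209, chr10:72273919-72276036, plus strand, 3 exons), also called REDD1, restrains mTORC1 through the TSC complex, and had 2022, 2240 and 2112 normalized counts in the Flag-IPs, as compared to 1908, 2136 and 1979 for the HA-IPs. The groups overlapped, with a log2 fold change of -0.082 (SE 0.062, 95% interval -0.22 to 0.053; adjusted p = 0.439, limma). SESN2 (ENSG00000130766, chr1:28259518-28282491, plus strand, 10 exons), a leucine sensor that restrains mTORC1 through GATOR2, had 2065, 2188 and 2198 normalized counts in the Flag-IPs, compared with 2132, 2056 and 1845 in the HA-IPs. HA-IP replicate 3 was the lowest library and the other HA-IPs lay near the Flag-IPs; the log2 fold change was -0.099 (SE 0.063, 95% interval -0.24 to 0.040; adjusted p = 0.355, limma), and -0.038 without HA-IP replicate 3.

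**Figure D3:**
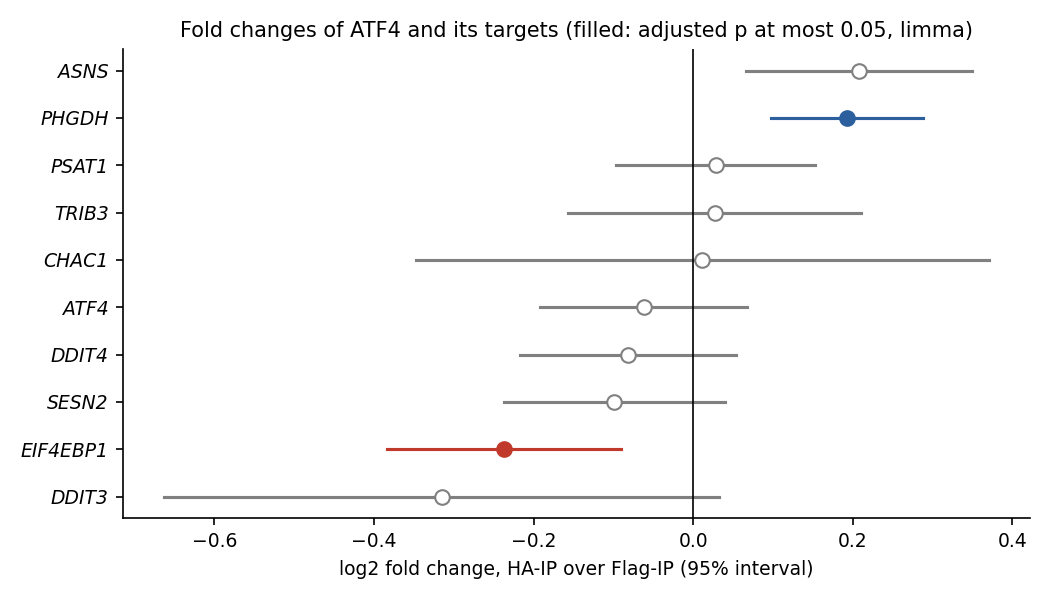
Log2 fold change, HA over Flag (x axis), for the 10 genes with 95% intervals from limma, on log2(normalized counts + 1). Filled points are called, PHGDH at 0.19 and EIF4EBP1 at -0.24; ASNS has an interval above 0 (0.066 to 0.35) but an adjusted p of 0.0564, and the widest intervals belong to CHAC1 and DDIT3, the genes with the fewest reads.

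Counts of the 2 groups did not overlap for 4 of the 10 genes (PHGDH, ASNS, DDIT3 and EIF4EBP1), beside 32.2% of all genes. At an unadjusted p below 0.05, 3 of the 10 genes passed, beside 27.2% of all genes. As a share of the library the 10 genes together took 0.121% to 0.13% in the Flag-IPs, a range that held the 0.124% to 0.129% of the HA-IPs.

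To compare the genes with each other, normalized counts were divided by the length of the canonical transcript in kilobases. ATF4 led at 7334 per kilobase over all 6 libraries, with PHGDH next at 6574, and the ranges of these 2 overlapped (6743 to 8006 and 6056 to 7161). PSAT1 at 2201 and ASNS at 2130 per kilobase followed and also overlapped each other. Below them came DDIT4 at 1185, EIF4EBP1 at 928, SESN2 at 601, TRIB3 at 440, DDIT3 at 132 and CHAC1 at 59.1 per kilobase, each with a range apart from its neighbours. By canonical length the amino acid enzymes and ATF4 thus stood above the inhibitors of growth signalling (DDIT4, EIF4EBP1 and SESN2). DDIT3 and CHAC1, which belong to the death-related branch, were lowest. When all annotated exons of a gene were used as its length, PHGDH came to 1335 per kilobase and changed places with PSAT1. The PHGDH exons span 9187 bases against 1866 in its canonical transcript. The other genes kept their order, but the ranges of ASNS (906 to 1206), DDIT4 (901 to 1058) and EIF4EBP1 (791 to 978) then overlapped. By that length ASNS was not set apart from DDIT4 and EIF4EBP1.

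**Figure D4:**
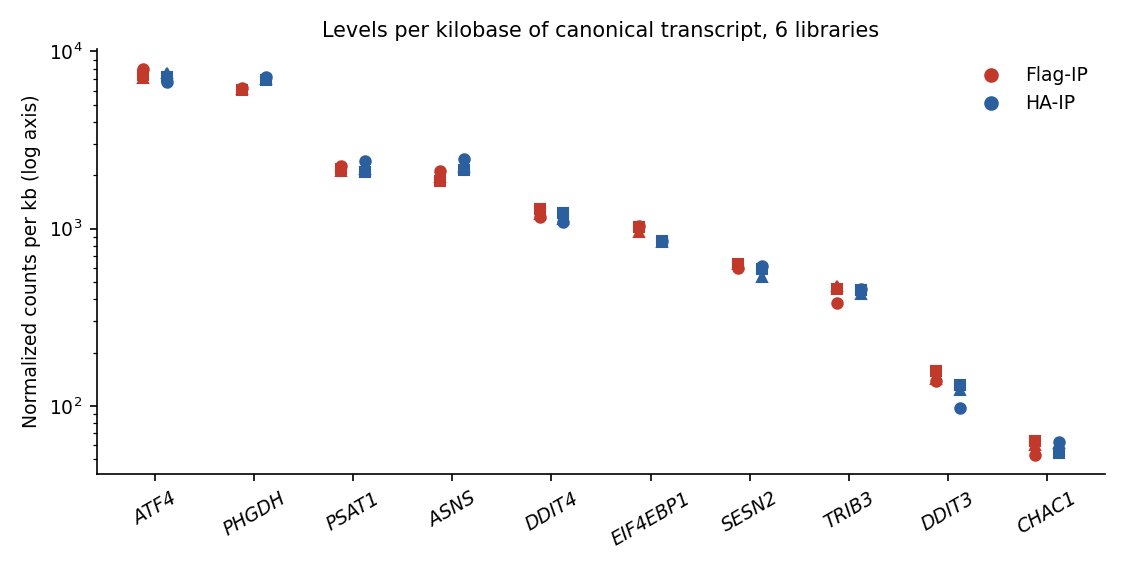
Normalized counts per kilobase of canonical transcript (log axis) of the 10 genes in the 3 Flag-IPs (red) and 3 HA-IPs (blue), with replicates 1, 2 and 3 as circle, square and triangle. Levels span from 7334 for ATF4 to 59.1 for CHAC1, while the groups of any 1 gene lie close together.

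The profile of ATF4 over the 6 libraries was compared with that of 5958 genes whose mean reached 1000 normalized counts, by the root mean square difference of log2 values centred on each gene's mean. The nearest were ITPA at 0.014, PSIP1 at 0.015, PHACTR4 at 0.019, LUC7L3 at 0.023 and CTNNBL1 at 0.023, none of them in the lists used here. Of the known targets that reached this level, DDIT4 ranked 1630, PSAT1 2292, SESN2 3620, PHGDH 4142, ASNS 4981 and TRIB3 4996. The known targets were spread over the ranking, and none was among the 5 nearest genes to ATF4. With so few targets among 5958 genes, that was likely in any case. The groups overlapped for ATF4, so its profile also holds the spread between single libraries. The ranking thus cannot show whether targets follow ATF4. DDIT3, CHAC1 and EIF4EBP1 lay below the minimum mean.

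Other genes of the pathway were taken from 9 lists that do not hold the 10 genes. Of 125 listed genes 123 were in the table. Of these, 22 were called (17.9%, beside 12.9% of all genes), 18 higher in the HA-IPs and 4 higher in the Flag-IPs. Low genes were rare in the lists: 120 of the 123 averaged 50 or more normalized counts. Of all genes at that level 14.4% were called (1891 of 13141), a closer comparison for these lists than 12.9%. The median log2 fold change of the 123 was 0.070, against -0.0049 for all genes. The balance depended on the scaling. At the same total per library 11 were called higher in the HA-IPs and 8 higher in the Flag-IPs. The median was then 0.017, against -0.057 for all genes. With quantile normalization 9 and 4 were called, and the median of 0.040 was near the 0.044 of all genes. These counts depended on the libraries: 2 to 33 of the 123 were called when 1 library was left out, the fewest without Flag-IP replicate 2, and 4, 5 and 7 when the HA-IPs were left out in turn.

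**Figure D5:**
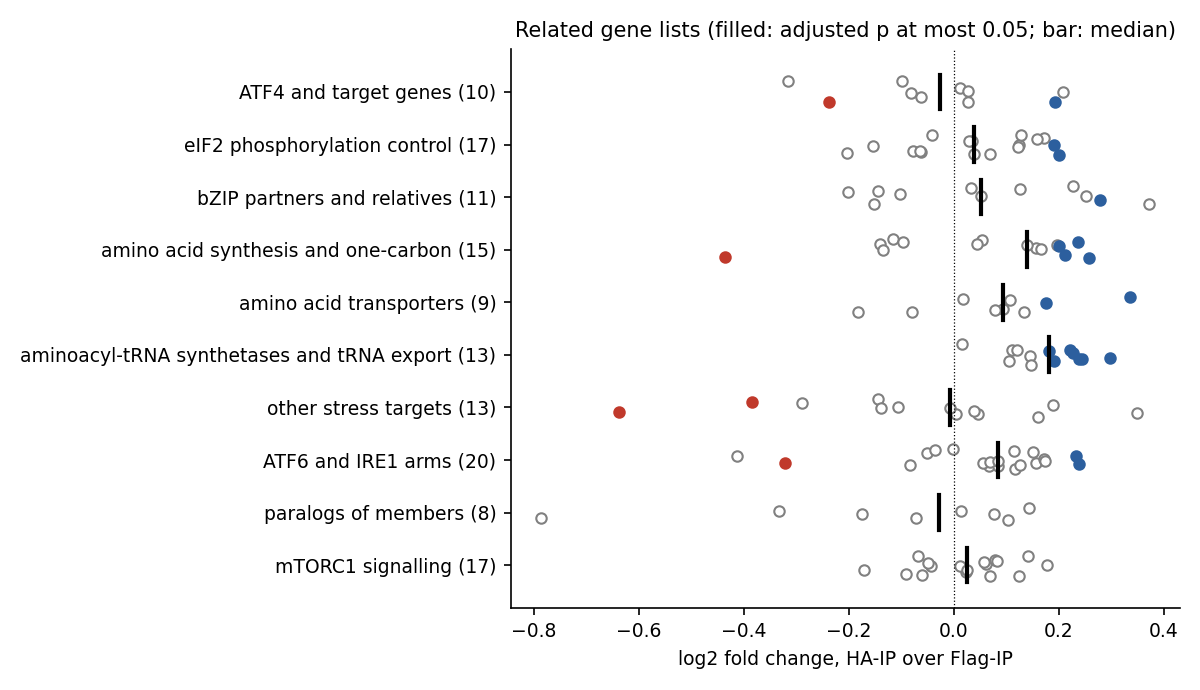
Log2 fold change, HA over Flag (x axis), for each gene of the 10 lists, with the number of genes in the table in parentheses. Filled points are called (blue higher in the HA-IPs, red higher in the Flag-IPs) and black bars are medians, which run from -0.029 in the paralogs and -0.025 in ATF4 and its targets to 0.18 in the synthetases.

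Aminoacyl-tRNA synthetases, which load amino acids onto tRNAs, and the tRNA export receptor XPOT formed the list with the most calls. All 13 had a higher mean in the HA-IPs and 7 were called (53.8%, beside 12.9% of all genes), with a median log2 fold change of 0.18. EPRS1, for glutamate and proline, had 23620, 23486 and 27556 normalized counts in the Flag-IPs, against 29759, 30100 and 31652 in the HA-IPs, a log2 fold change of 0.30 (adjusted p = 0.0129, limma). IARS1, for isoleucine, had 20276, 19753 and 20875 in the Flag-IPs, while the HA-IPs had 25135, 23082 and 23649, a log2 fold change of 0.24 (adjusted p = 0.0111, limma). MARS1, LARS1 and AARS1, for methionine, leucine and alanine, were higher by 0.24, 0.23 and 0.22 on the log2 scale (adjusted p of 0.00696, 0.0122 and 0.0129, limma). In none of these 5 did the groups overlap, and 32.2% of all genes were likewise without overlap. The 5 were named for their calls or high means, so this is no separate support. Leaving out 1 library changed the number called to between 0 (without Flag-IP replicate 2) and 8, with 1 without HA-IP replicate 1 and 2 without HA-IP replicate 2 or 3, while 12 or 13 of the 13 stayed higher in the HA-IPs in every alternative run. With quantile normalization 3 were called, and the median was 0.11, against 0.044 for all genes. The number was 5 at the same total per library and 9 with GC and length trends removed. It was 0 without the variance trend and 1 at an adjusted p of at most 0.01.

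Of 15 genes of amino acid synthesis and one-carbon metabolism, 4 were called higher in the HA-IPs and 1 higher in the Flag-IPs (33.3%, beside 12.9% of all genes). The median log2 fold change was 0.14. The 4 became 1 without Flag-IP replicate 2, HA-IP replicate 1 or HA-IP replicate 2, and 2 without HA-IP replicate 3. ALDH18A1, which starts proline synthesis, had 11824, 12029 and 12457 normalized counts in the Flag-IPs, as compared to 14432, 14252 and 14741 for the HA-IPs (log2 fold change 0.26, adjusted p = 0.00471, limma). SHMT2, which splits serine into glycine and a one-carbon unit in mitochondria, was higher by 0.20 (adjusted p = 0.0129, limma), and MTHFD1L, which acts further along the mitochondrial one-carbon route, by 0.21 (adjusted p = 0.013, limma), both on the log2 scale. ASS1, which joins citrulline and aspartate on the way to arginine, went the other way, from 721, 699 and 656 normalized counts in the Flag-IPs to 505, 489 and 539 in the HA-IPs (log2 fold change -0.44, adjusted p = 0.00509, limma).

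Among 9 amino acid transporters 2 were called (22.2%, beside 12.9% of all genes), both higher in the HA-IPs, and the median log2 fold change was 0.094. The number was 0 without Flag-IP replicate 2, HA-IP replicate 1 or HA-IP replicate 2, 1 without HA-IP replicate 3 and 3 without Flag-IP replicate 3. SLC1A5, a glutamine carrier, had 11618, 13026 and 14442 normalized counts in the Flag-IPs, compared with 16629, 16538 and 15955 in the HA-IPs (log2 fold change 0.34, adjusted p = 0.0104, limma). SLC38A2, a sodium-coupled neutral amino acid carrier, was higher by 0.18 (adjusted p = 0.0355, limma). SLC7A1, a carrier of cationic amino acids and after SLC1A5 the most abundant of the list, was not called (0.13, adjusted p = 0.12, limma).

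Upstream of ATF4, 2 of 17 genes that control eIF2 phosphorylation were called, both higher in the HA-IPs, with a median of 0.038. This was 11.8%, near the 12.9% of all genes. None of the 17 was called when any library other than Flag-IP replicate 3 was left out. At the same total per library 1 was called higher in the HA-IPs and 2 higher in the Flag-IPs. The median was then -0.015, against -0.057 for all genes. The 2 were EIF2AK4, the kinase GCN2 that senses uncharged tRNA, at 0.19 (adjusted p = 0.0435, limma), and its activator GCN1, at 0.20 (adjusted p = 0.0307, limma). GCN1 had 34569, 35178 and 38464 normalized counts in the Flag-IPs, against 41110, 41977 and 41069 in the HA-IPs. EIF2S3, the gamma subunit of eIF2, was not called (0.12, adjusted p = 0.0897, limma). Of 11 bZIP partners and relatives 1 was called (9.09%, beside 12.9% of all genes). It was CEBPA, with 1070, 1191 and 1258 normalized counts in the Flag-IPs, while the HA-IPs had 1403, 1484 and 1373 (0.28, adjusted p = 0.0255, limma). None of the 11 was called when Flag-IP replicate 2 or any single HA-IP was left out. JUN (0.23, adjusted p = 0.107, limma) and CEBPG (-0.15, adjusted p = 0.17, limma), the most abundant of that list, were not called, and CEBPG is a known dimer partner of ATF4.

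In the parallel arms of the unfolded protein response, run by ATF6 and IRE1, 3 of 20 genes were called (15%, beside 12.9% of all genes). Of these, 2 had more and 1 had fewer counts in the HA-IPs, and the median of the list was 0.084. Of the 20, 0 were called without Flag-IP replicate 2 or any single HA-IP, and 5 without Flag-IP replicate 3. HSPA5, the chaperone BiP, had 28443, 29239 and 31307 normalized counts in the Flag-IPs, as compared to 34830, 34291 and 35324 for the HA-IPs (0.23, adjusted p = 0.0132, limma). ATF6B, a relative of ATF6, was also higher (0.24, adjusted p = 0.0287, limma), and MANF, a secreted protein of the endoplasmic reticulum, was lower (-0.32, adjusted p = 0.0363, limma). HSP90B1 and CANX, the most abundant genes of the list, were not called (0.12 and 0.16, adjusted p of 0.172 and 0.053, limma).

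Of 13 other stress targets in the table, 2 were called (15.4%, beside 12.9% of all genes). Both were higher in the Flag-IPs, and the median of the list was -0.0081. The number was 0 without Flag-IP replicate 2 and 1 when any single HA-IP was left out. CREBRF, a stress-induced regulator of CREB3, had 369, 370 and 258 normalized counts in the Flag-IPs, compared with 219, 224 and 190 in the HA-IPs (-0.64, adjusted p = 0.0164, limma). VLDLR, a lipoprotein receptor, had 1164, 1146 and 974 in the Flag-IPs, against 841, 852 and 815 in the HA-IPs (-0.38, adjusted p = 0.00922, limma). LONP1 and SQSTM1, the most abundant of this list, were not called (0.046 and 0.16, adjusted p of 0.637 and 0.198, limma), and NUPR1 and FGF21 were not in the table.

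No gene was called in the main limma fit among 8 paralogs of the targets or among 17 genes of mTORC1 signalling, with 2 and 4 genes at an unadjusted p below 0.05 (27.2% of all genes were). EIF4EBP2, the second gene for a 4E-BP, had 2864, 2586 and 2534 normalized counts in the Flag-IPs, while the HA-IPs had 2475, 2206 and 2386, without overlap (-0.18, adjusted p = 0.098, limma). TRIB2, the other abundant paralog, had a log2 fold change of 0.014 (adjusted p = 0.9, limma). MTOR and RPTOR, the most abundant of the mTORC1 list, had values of 0.14 and 0.070 (adjusted p of 0.0978 and 0.428, limma). On the recovered reads, edgeR and DESeq2 also called 0 genes in both lists. Other limma fits called some. Of the paralogs, 1 was called higher in the HA-IPs without Flag-IP replicate 1. At the same total per library, and with GC and length trends removed, 1 was called higher in the Flag-IPs. Without Flag-IP replicate 3, 1 mTORC1 gene was called in each direction.

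Promoters were searched for TGATGNAA, a core shared by C/EBP-ATF composite elements, on either strand (TTNCATCA when it lies on the other strand), in RefSeq windows from 250 bases before to 50 bases after an annotated start (GRCh38.p14). Windows were at hand for 9 of the 10 genes, and 2 of the 9 held the motif, against 325 of 11687 genes of the table with a window (2.78%). The 2 matches are shown, with the motif in capitals, because ASNS and CHAC1 are the genes with a match, and the ASNS letters belong to the nutrient-sensing element known from that promoter.
ASNS, chr7:97872458-97872487, minus strand, motif starting 68 bases before the start: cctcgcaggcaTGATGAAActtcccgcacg
CHAC1, chr15:40953251-40953280, plus strand, motif on the other strand and 209 bases before the start: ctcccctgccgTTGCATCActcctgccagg
In ASNS the motif was in 1 of 2 windows. These windows gave no match for ATF4, DDIT3, TRIB3, SESN2, PSAT1, PHGDH or DDIT4, which says only that these letters are not there.

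The motif was held by 7 of 11 synthetase genes with a window (63.6%), 4 of 7 transporters (57.1%), 3 of 10 bZIP genes and 2 of 9 genes of amino acid synthesis (22.2%), and by 0 or 1 gene in each of the 5 other lists. Among the pathway genes with a window, the HA-IPs were called higher in 7 of the 19 with the motif and 0 were called higher in the Flag-IPs, with a median log2 fold change of 0.13. Of the 85 without it, 9 were called higher in the HA-IPs and 4 higher in the Flag-IPs, with a median of 0.054. The bZIP genes went the other way, with a median of -0.14 for the 3 with the motif and 0.13 for the 7 without. Over all genes of the table with a window, 7.08% of the 325 with the motif and 6.93% of the 11362 without were called higher in the HA-IPs, and 8.92% and 6.59% higher in the Flag-IPs. Of the 7 called pathway genes with the motif, 5 were synthetases, and 1 each was a transporter and a gene of amino acid synthesis. These shares are a description, and a match is not a site shown to be bound.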

How the data were processed

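RNA bound to tagged ribosomes was sequenced after poly(A) selection in 6 libraries, 3 Flag-IPs and 3 HA-IPs, grouped by the epitope tag in the labels. Per the submitters' processing notes, the authors used Trimmomatic 0.36 for trimming, STAR 2.5.2b for alignment to GRCh38 and featureCounts of Subread 1.5.2 for gene counts. Genes short of 10 reads in at least 3 samples were dropped by them. The annotation release and the strand setting are not given in the sources used here. The deposited signal is each library's count after division by its size factor, made by the authors (DESeq2; the notes give 3.16, which is not a version of that package). The deposited log2 fold changes and adjusted p-values of the authors' own comparison were not used.

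HA-IPs and Flag-IPs were compared by limma 3.58.1 (R 4.3.3), with a variance trend and two-sided, on values transformed as log2(normalized counts + 1), with Benjamini-Hochberg adjustment over 16834 genes, at an adjusted p of at most 0.05. This scale understates the change of low genes. The deposited values are not counts, but 100% of them were whole multiples of 1 read within 0.01 reads, so DESeq2 1.42.0 and the quasi-likelihood test of edgeR 4.0.16 with TMM were run on the recovered reads as alternatives. In 1 library 1 read is worth so close to 1 that this step could be shown less firmly. The tests were tried on simulated data with known changes. Transcripts, leaders and lengths came from GENCODE 44 (GRCh38), which holds 16683 of 16834 identifiers (99.1%), and promoter windows from RefSeq (GRCh38.p14). Python 3.11.15 and matplotlib 3.10.9 read the annotation and drew the plots.

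The genes, lists, tests and alternatives were chosen with earlier results of these data known. All 10 genes are named; from each list, up to 4 called genes with the smallest adjusted p and the 2 with the highest mean; and the 5 genes nearest to ATF4. Any other gene was named with its values in view. Alternatives included a pseudocount of 0.1 or 10, a minimum mean of 50, quantile, total and upper quartile scaling, edgeR, DESeq2, no variance trend, a replicate block, each library left out, GC and length trends removed (splines with 5 degrees of freedom) and an adjusted p of at most 0.01.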

Additional observations from a re-analysis of the deposited data

How the results depend on the processing

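Across 17 alternatives, DDIT3 and SESN2 kept their direction and were never called, and ASNS and PHGDH stayed higher in the HA-IPs, with ASNS called in 5 and PHGDH in 11. EIF4EBP1 stayed lower in the HA-IPs and was called in 7. No call of ATF4, TRIB3, CHAC1, PSAT1 or DDIT4 appeared, but their directions turned: the log2 fold change was 0.039 for ATF4 and 0.0012 for DDIT4 with GC content and transcript length trends removed, -0.026 for TRIB3, -0.041 for CHAC1 and -0.025 for PSAT1 at the same total per library, and -0.024 for PSAT1 with quantile normalization. With 1 library left out they ran from -0.071 to 0.091 for TRIB3, -0.062 to 0.076 for CHAC1 and -0.028 to 0.068 for PSAT1, and without a change of sign from -0.10 to -0.013 for ATF4, -0.40 to -0.19 for DDIT3, -0.14 to -0.038 for SESN2 and -0.13 to -0.043 for DDIT4.

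Of the 10 genes, 0 were called with quantile normalization, without the variance trend or at an adjusted p of at most 0.01 (3 at an unadjusted p below 0.05 in each), and 0 to 2 with 1 library left out. Of the 123 pathway genes, 13 were called with quantile normalization (9 higher in the HA-IPs), 19 at the same total per library (11 higher in the HA-IPs), 0 without the trend (34 at an unadjusted p below 0.05), 4 at an adjusted p of at most 0.01 and 2 to 33 with 1 library left out. Of all genes, 188 were called without the trend, 704 at an adjusted p of at most 0.01 and 620 to 3059 with 1 library left out. The same total per library moved the median of all genes to -0.057 and gave 471 genes higher in the HA-IPs and 1576 higher in the Flag-IPs, against 975 and 1196. The causes were not tested, beyond the smaller number of libraries and the stricter threshold themselves.

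No pairing by replicate number was seen: deviations of same-numbered libraries from their group means correlated at -0.16, 0.031 and -0.31 over 13141 genes. Differently numbered ones ranged from -0.24 to 0.30. Deviations from a group mean sum to 0, so these values are tied together. They cannot show whether same-numbered libraries shared a culture. With the replicate block 1662 of all genes, 21 pathway genes and 2 of the 10 genes were called, the last being PHGDH (adjusted p = 0.0257) and ASNS (adjusted p = 0.0272), while EIF4EBP1 had 0.0712, all by limma. Depth is lowest for DDIT3 and CHAC1, with 62 to 139 reads per library; counting error and the spread between libraries were not separated.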
